A study of Mus musculus with 49 samples.

Results

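Hpgd and the enzymes of prostaglandin and leukotriene synthesis were described in normal mouse blood-forming cells and in acute myeloid leukaemias (AMLs) driven by MLL-AF9 (MA9). The members were the 10 genes of the expression table whose Ensembl identifier belonged to Hpgd, Hpgds, Ptgs1, Ptgs2, Ptges, Alox5, Alox5ap, Lta4h, Ltc4s or Tbxas1, of 38253 genes in all. Hpgd was picked because its level rose from normal granulocyte-macrophage progenitors to the leukaemias derived from them. Its levels are therefore given as a description, without a test wherever leukaemia was set against normal cells or a pair held either of those groups. A further 60 genes of the same pathway (phospholipases, other synthases, processing and inactivating enzymes, transporters and receptors) were read beside the members.

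Eicosanoids are short-lived lipid signals made from arachidonic acid, which phospholipases release from membranes. The cyclooxygenases Ptgs1 and Ptgs2 turn it into prostaglandin H2, from which Ptges makes prostaglandin E2, Hpgds prostaglandin D2 and Tbxas1 thromboxane A2. The 5-lipoxygenase Alox5, helped by its activating protein Alox5ap, makes leukotriene A4, which Lta4h converts to leukotriene B4 and Ltc4s to leukotriene C4. Hpgd, 15-hydroxyprostaglandin dehydrogenase, performs the first step that inactivates prostaglandin E2 and its relatives. In blood-forming tissue prostaglandin E2 is known for its effects on stem cells, and leukotrienes are known as products of mature myeloid and mast cells.

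RNA was sequenced from 49 samples, each from 1 C57BL/6J mouse, female per the study's methods and labelled as wild type and 6 to 12 weeks old. The labels name no treatment for the normal groups. The 30 normal samples were 5 of long-term (LT-HSC) and 5 of short-term haematopoietic stem cells (ST-HSC), 6 of multipotent progenitors (MPP), 5 of common myeloid progenitors (CMP), 5 of granulocyte-macrophage progenitors (GMP) and 4 of megakaryocyte-erythroid progenitors (MEP). The 19 leukaemias were named for the cell that had been transformed, with 3 of STHSC:MA9, 6 of MPP:MA9, 4 of CMP:MA9 and 6 of GMP:MA9. In these, sorted cells had received a retrovirus carrying MLL-AF9 and GFP and had grown in sublethally irradiated recipients. Per the study's methods the leukaemia RNA came from bulk GFP+ cells of the recipient's spleen, and the normal RNA from marrow cells sorted on surface markers, although the labels give marrow for both. The retrovirus, the host, irradiation and the organ thus changed together with the leukaemia and cannot be told apart from it. By the study's naming these leukaemias grew from primary cells transplanted straight after transduction, not from cultured lines.

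Values are FPKM, mapped fragments scaled for the length of the transcript and for the total of the library, so that levels of different genes can be set side by side. Between 15282 and 17852 genes were above 0 in a library, and the relative depth of the libraries, read from the steps between low values, ran from 0.490 to 1.54. The leukaemias carried little Kit, the stem and progenitor receptor used in the sort (0.330–5.94 FPKM against 43.2–152 in the normal samples), and more of the monocyte genes Csf1r (29.0–129.5 against 0.110–32.5) and Cd68 (224–638 against 2.27–108). The sum of a list of 9 monocyte and macrophage genes was 423–1287 FPKM in the leukaemias, 185–305 in GMP and 7.61–254 in the other normal samples, whereas 3 macrophage markers of that list, C1qa, Mrc1 and Fcgr1, stayed below 1 FPKM in every leukaemia. Replicates 4 and 5 of LT-HSC and ST-HSC stood apart, since their 11 granulocyte genes summed to 75085 and 30372 FPKM in LT-HSC (54.0–159 in the other 3) and to 43885 and 11177 in ST-HSC (577–2839 in the other 3). The change of Hpgd against ST-HSC, and those of other members that were called there, are given with and without these libraries. In bulk samples fewer cells of a type and less RNA per cell cannot be told apart.

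The genes lie on 7 chromosomes, and the windows before their start sites are shown because the members described first changed together in the leukaemias. On build mm9 (NCBIM37, GENCODE M1 annotation) Hpgd spans chr8:58773349-58799843 on the plus strand, in 7 exon blocks. Alox5 spans chr6:116360095-116411196 on the minus strand, Alox5ap chr5:150076634-150099621 on the plus strand, Lta4h chr10:92916141-92947641 on the plus strand and Ltc4s chr11:50049971-50052118 on the minus strand. Ptgs1 spans chr2:36085946-36107792 and Ptgs2 chr1:151947254-151955140, both on the plus strand, and Ptges chr2:30744991-30785383 on the minus strand. Hpgds spans chr6:65067287-65094902 on the minus strand and Tbxas1 chr6:38825403-39034584 on the plus strand. RefSeq promoter windows of another build, GRCm38.p6, matched 9 of the 10 members, all but Alox5ap. The 250 bases before the start site are written 5′ to 3′ on the gene's own strand for the inactivating enzyme Hpgd (chr8:56294302-56294551, plus strand), for Alox5 (chr6:116461179-116461428, minus strand) and Ptges (chr2:30903298-30903547, minus strand), which were higher in the leukaemias, and for Ptgs1 (chr2:36230176-36230425, plus strand) and Lta4h (chr10:93453146-93453395, plus strand), which varied together among the leukaemias. Capitals mark the letters GAGGAA, a sequence bound by PU.1 and its relatives, or the reverse complement TTCCTC.
Hpgd: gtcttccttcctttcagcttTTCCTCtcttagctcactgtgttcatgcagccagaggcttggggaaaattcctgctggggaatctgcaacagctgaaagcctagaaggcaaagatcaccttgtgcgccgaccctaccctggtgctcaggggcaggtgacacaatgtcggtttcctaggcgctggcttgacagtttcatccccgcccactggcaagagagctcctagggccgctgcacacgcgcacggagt
Alox5: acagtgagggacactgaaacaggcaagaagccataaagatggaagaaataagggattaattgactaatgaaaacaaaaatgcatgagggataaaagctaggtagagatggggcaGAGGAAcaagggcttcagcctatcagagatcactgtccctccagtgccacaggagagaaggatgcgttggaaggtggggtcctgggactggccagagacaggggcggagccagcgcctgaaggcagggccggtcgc
Ptges: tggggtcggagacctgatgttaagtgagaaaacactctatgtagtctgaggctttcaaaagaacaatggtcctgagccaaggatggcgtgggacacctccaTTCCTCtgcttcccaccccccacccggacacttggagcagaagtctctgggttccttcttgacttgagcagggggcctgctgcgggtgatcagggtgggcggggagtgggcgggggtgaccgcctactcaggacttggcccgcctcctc
Ptgs1: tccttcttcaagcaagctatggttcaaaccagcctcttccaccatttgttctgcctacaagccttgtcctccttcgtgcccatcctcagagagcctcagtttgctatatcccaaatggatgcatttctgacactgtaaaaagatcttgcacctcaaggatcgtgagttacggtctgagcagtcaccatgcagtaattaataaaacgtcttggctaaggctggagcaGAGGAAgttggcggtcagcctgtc
Lta4h: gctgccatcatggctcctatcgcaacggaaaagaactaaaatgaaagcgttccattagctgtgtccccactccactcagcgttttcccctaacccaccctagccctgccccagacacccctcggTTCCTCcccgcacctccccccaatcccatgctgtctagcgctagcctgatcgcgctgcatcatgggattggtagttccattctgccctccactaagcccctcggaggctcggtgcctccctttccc
These letters lay 230 to 225 bases before the start of Hpgd, 136 to 131 before that of Alox5, 149 to 144 before that of Ptges, 24 to 19 before that of Ptgs1 and 126 to 121 before that of Lta4h. Searched on both strands, GAGGAA was present in 8 of the 9 windows, all but that of Ltc4s, and in 23.3% of 32851 RefSeq windows of the same length. The shorter GGAA, which ends GAGGAA, also occurs in the Ltc4s window and was not counted in any window. The C/EBP-like letters TTNCNNAA were in 4 of the 9 (36.8% of all windows), the GC box GGGCGG in 4 (32.7%), and TATAAA (12.4%), CCAAT (33.8%) and the HOX-like TGATTNAT (2.8%) in 1 each. A match describes these letters and is no evidence that a factor binds there.

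Hpgd was close to the floor in every normal population and among the most abundant transcripts of every leukaemia. In normal cells the highest of 30 values was 4.87 FPKM, and in the leukaemias the lowest of 19 was 386. The 5 GMP samples had 1.66, 2.11, 2.08, 3.03 and 1.27 FPKM. The 6 GMP:MA9 leukaemias ran from 561 to 864 with a median of 803. No normal sample came near any leukaemia. Hpgd was 0.76, 0.65, 0.61, 1.52 and 0.29 FPKM in the 5 CMP samples and 1090, 1164, 650 and 727 in the 4 CMP:MA9 leukaemias. It was 1.84, 4.83, 0.90, 3.69 and 3.79 FPKM in ST-HSC and 386, 1055 and 688 in STHSC:MA9. The MPP samples ran from 0.640 to 1.87 FPKM with a median of 1.12, and the MPP:MA9 leukaemias from 452 to 990.1 with a median of 841. The lowest leukaemia of each origin was above every sample of its normal cell.

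By group means, Hpgd was 377 times higher in GMP:MA9 than in GMP, 1185 times in CMP:MA9 than in CMP, 626 times in MPP:MA9 than in MPP and 236 times in STHSC:MA9 than in ST-HSC. On the log2(FPKM + 1) scale the differences were 7.99 (SE 0.25), 9.0 (SE 0.28), 8.40 (SE 0.24) and 7.46 (SE 0.30), and their mean was 8.21 (SE 0.13). Without stem cell replicates 4 and 5 the difference in STHSC:MA9 was 7.70. Ranked by mean level among the 38253 genes, Hpgd stood at place 114 in GMP:MA9, 115 in CMP:MA9, 132 in MPP:MA9 and 135 in STHSC:MA9, against place 9909 in GMP and 12403 in CMP. The leukaemias thus differed from one another far less than each did from its normal cell.

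**Figure D1:**
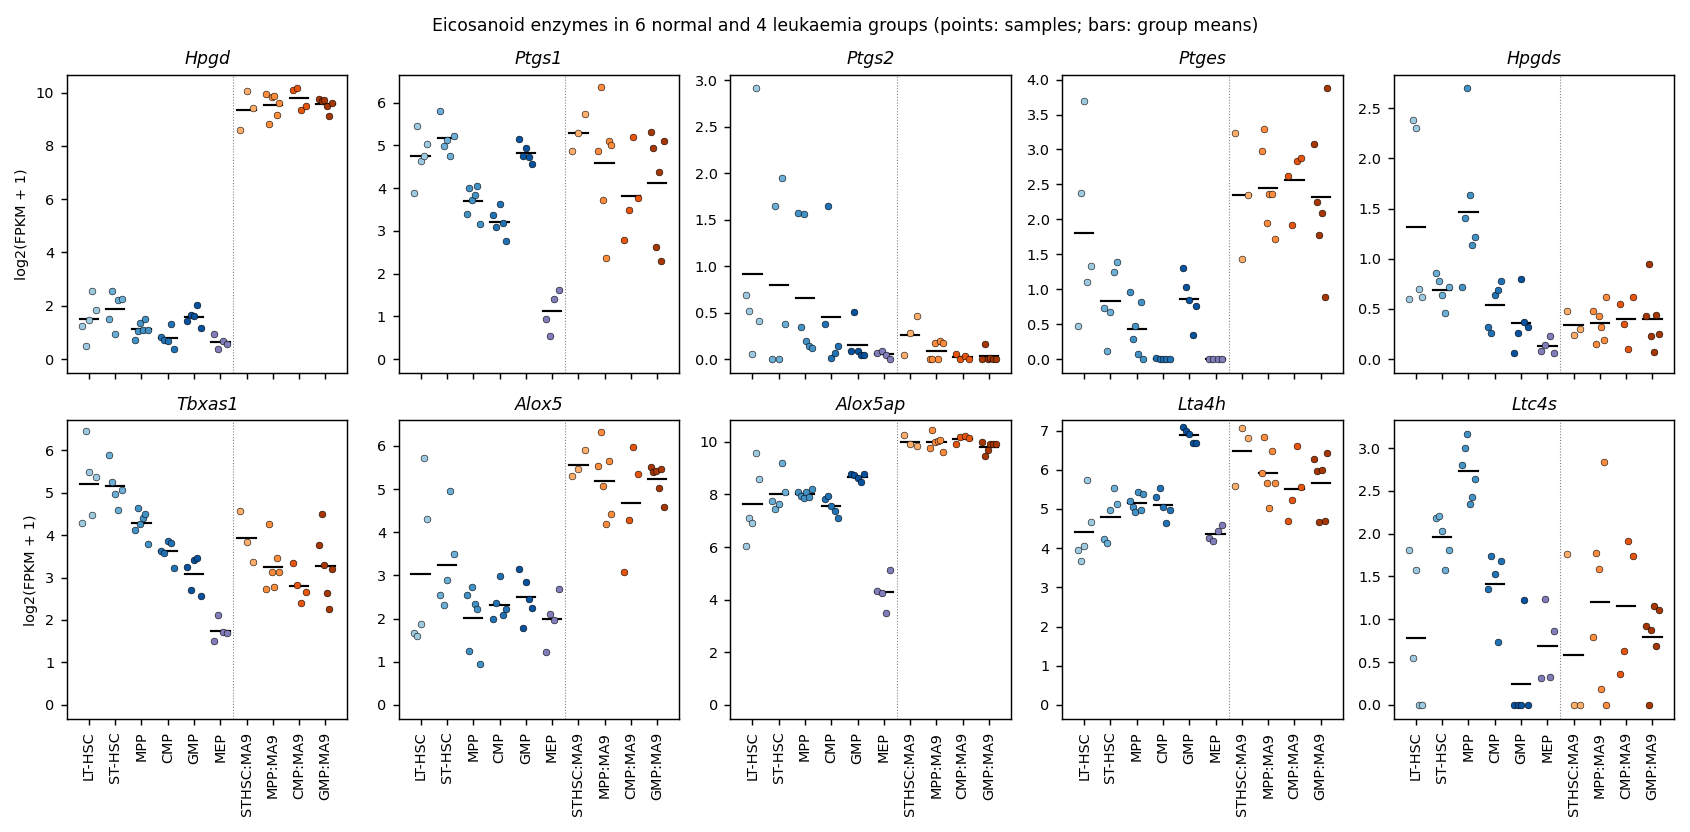
Level of each of the 10 members in the 49 samples, as log2(FPKM + 1), with 1 panel per gene and its own vertical axis. Points are samples grouped by population and bars are group means. Hpgd lies between 386 and 1164 FPKM in the 19 leukaemias and at or below 4.87 in the 30 normal samples. For every other member the ranges in leukaemias and normal samples overlap.

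Among the leukaemias the order of the mean Hpgd level was CMP:MA9 (908 ± 257 FPKM, SD, n = 4), MPP:MA9 (773 ± 217, n = 6), GMP:MA9 (766 ± 113, n = 6) and STHSC:MA9 (709.7 ± 335, n = 3), and each neighbour overlapped the next. In the 3 pairs without GMP:MA9, limma (two-sided, Benjamini-Hochberg over 12128 genes) gave a difference on log2(FPKM + 1) of −0.18 (SE 0.29, adjusted p = 0.72) for STHSC:MA9 minus MPP:MA9. It gave −0.43 (SE 0.32, adjusted p = 0.54) for STHSC:MA9 minus CMP:MA9 and −0.24 (SE 0.27, adjusted p = 0.86) for MPP:MA9 minus CMP:MA9. No difference between origins was detectable at this spread. Among the normal cells the order was ST-HSC (3.01 ± 1.60 FPKM, n = 5), LT-HSC (2.20 ± 1.69, n = 5), GMP (2.03 ± 0.656, n = 5), MPP (1.24 ± 0.429, n = 6), CMP (0.766 ± 0.456, n = 5) and MEP (0.565 ± 0.257, n = 4), again with every neighbour overlapping. The largest difference in the 4 normal pairs without GMP was ST-HSC minus MPP, 0.76 (SE 0.29, limma adjusted p = 0.066), and the other 3 lay between −0.38 and 0.35 with limma adjusted p from 0.47 to 0.76.

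The genes most like Hpgd were sought by Pearson correlation of log2(FPKM + 1), as a description over samples that share libraries and groups. Over all 49 samples they were Igf2bp3, which encodes an oncofetal RNA-binding protein (r = 0.985, with medians of 0.230 FPKM in normal cells and 18.9 in leukaemias), 4930455G09Rik (r = 0.98) and Gm15931 (r = 0.976). All 3 followed the split between normal and leukaemic samples. Over the 19 leukaemias alone the closest were Glipr1 (r = 0.772), Flcn (r = 0.766) and Copz2 (r = 0.754), and over the 30 normal samples F5 (r = 0.774), Serpinb10-ps (r = 0.754) and Lrrk2 (r = 0.751). No gene was named in more than 1 of these 3 lists.

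The leukotriene arm rose at its first step in all 4 leukaemias. Alox5 and Alox5ap were higher in every leukaemia than in its normal cell, Lta4h rose in STHSC:MA9 and fell in GMP:MA9, and Ltc4s fell in STHSC:MA9 and MPP:MA9. A gene was called at a limma adjusted p below 0.05 and a change above 1 in size on log2(FPKM + 1), over the 12600 genes that averaged 1 FPKM or more. At those limits 12.3% of all genes tested were called higher and 11.9% lower in STHSC:MA9, 13.5% and 13.6% in MPP:MA9, 13% and 14.8% in CMP:MA9, and 13.5% and 8.87% in GMP:MA9.

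Alox5 was 4.82, 4.00, 6.49, 30.3 and 10.2 FPKM in ST-HSC and 38.4, 43.3 and 59.2 in STHSC:MA9. It was 2.96, 4.16, 6.89, 3.22 and 3.63 FPKM in CMP and 7.44, 18.5, 61.9 and 40.1 in CMP:MA9. It was 7.83, 2.44, 6.18, 4.49 and 3.76 FPKM in GMP, and ran from 23.1 to 44.6 (median 41.4) in GMP:MA9. None of these groups overlapped, although CMP:MA9 replicate 1 was only just above the highest CMP sample. MPP (0.940–5.69 FPKM, median 3.85) and MPP:MA9 (17.2–79.2, median 39.1) did not overlap either. By limma Alox5 was higher by 2.32 (SE 0.52, adjusted p = 3.2e-04) in STHSC:MA9, 3.19 (SE 0.41, adjusted p = 2.1e-08) in MPP:MA9, 2.35 (SE 0.48, adjusted p = 6.7e-05) in CMP:MA9 and 2.74 (SE 0.43, adjusted p = 1.7e-06) in GMP:MA9. A limma F test for a change that differs among the 4 origins gave an adjusted p of 0.56. Without replicates 4 and 5 of the stem cells, ST-HSC replicate 4 being the sample at 30.3, the change in STHSC:MA9 was 2.97.

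Alox5ap, the membrane protein that presents arachidonic acid to Alox5, was the most abundant member, and Hpgd came next in the leukaemias. It was 213, 175, 199, 587 and 273 FPKM in ST-HSC and 1227, 963 and 915 in STHSC:MA9. CMP ran from 137 to 242 FPKM, and the CMP:MA9 leukaemias had 968, 1168, 1179 and 1130. GMP already held 353 to 438 FPKM, and GMP:MA9 held 698 to 1013 with a median of 963. Every leukaemia was above every sample of its normal cell. By limma the changes were 1.98 (SE 0.23, adjusted p = 6.1e-09) in STHSC:MA9, 1.97 (SE 0.18, adjusted p = 1.2e-11) in MPP:MA9, 2.55 (SE 0.21, adjusted p = 1.6e-12) in CMP:MA9 and 1.14 (SE 0.19, adjusted p = 5.1e-06) in GMP:MA9. The change differed among origins (F test, limma adjusted p = 0.0015). The leukaemia means, 904 ± 121 FPKM in GMP:MA9 (n = 6) and 1032 ± 218 to 1111 ± 97.9 in the other 3, were closer together than those of the normal cells, 192 ± 43.8 in CMP (n = 5) to 408 ± 35.5 in GMP (n = 5). Without stem cell replicates 4 and 5 the change in STHSC:MA9 was 2.39. The monocyte and macrophage list was also higher in every leukaemia than in its normal cell, and its part in the levels of Alox5 and Alox5ap was not tested.

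Lta4h, the leukotriene A4 hydrolase, moved in opposite directions in STHSC:MA9 and GMP:MA9. The 5 GMP samples had 135, 127, 119, 103 and 102 FPKM, the highest level of any normal group, and GMP:MA9 ran from 24.4 to 85.1 with a median of 62.0. ST-HSC had 17.7, 16.4, 30.5, 45.2 and 33.9 FPKM and STHSC:MA9 had 47.1, 132 and 112. Neither pair overlapped, the leukaemias being lower in the first and higher in the second. By limma the change was −1.21 (SE 0.33, adjusted p = 0.0021) in GMP:MA9 and 1.69 (SE 0.40, adjusted p = 6.0e-04) in STHSC:MA9, or 2.05 without stem cell replicates 4 and 5. It was 0.77 (SE 0.32, adjusted p = 0.033) in MPP:MA9, under the limit on size, and 0.42 (SE 0.37, adjusted p = 0.33) in CMP:MA9. The difference among origins passed the F test (limma adjusted p = 1.9e-04). The granulocyte list summed to 18721–32184 FPKM in GMP, 1364–15467 in GMP:MA9, 577–43885 in ST-HSC and 19339–48032 in STHSC:MA9. The sum was lower in GMP:MA9 and its median was higher in STHSC:MA9, as with Lta4h, and its part was not tested. Single genes of the list differed. Mpo reached 14354 FPKM in a normal sample and at most 229 in a leukaemia. S100a8 overlapped between GMP (770.2–4245 FPKM) and GMP:MA9 (392–5422).

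Ltc4s, the synthase of the cysteinyl leukotrienes, was low throughout and listed at 0 in 10 libraries. It was 3.54, 3.63, 3.07, 1.98 and 2.51 FPKM in ST-HSC and 2.38, 0 and 0 in STHSC:MA9. MPP held the most, 4.08 to 7.97 FPKM with a median of 5.60, and the MPP:MA9 leukaemias had 0.73, 2.42, 2.01, 0.14, 6.15 and 0. The GMP samples were listed at 0 but for replicate 4 (1.33 FPKM), and GMP:MA9 ran from 0 to 1.22. The ranges overlapped in every one of these pairs. By limma the change in Ltc4s was −1.38 (SE 0.45, adjusted p = 0.012) in STHSC:MA9, a call lost without STHSC:MA9 replicate 2 or replicate 3 (−1.08 in each case) and kept without stem cell replicates 4 and 5 (−1.55), and −1.53 (SE 0.36, adjusted p = 3.6e-04) in MPP:MA9. It was −0.25 (SE 0.42, adjusted p = 0.63) in CMP:MA9 and 0.55 (SE 0.38, adjusted p = 0.21) in GMP:MA9, and the change differed among origins (F test, limma adjusted p = 0.0059). Its values are uncertain, since 17.4% of its 31-base stretches occur elsewhere in the transcripts and 192 of its exonic bases overlap the non-coding gene Gm16641 on the other strand, which this unstranded library kit cannot separate.

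In the cyclooxygenase arm the prostaglandin E2 synthase Ptges had a higher mean in every leukaemia, Tbxas1 was lower in STHSC:MA9 and MPP:MA9, and Ptgs1 was called in no leukaemia. Ptges was 0.66, 0.08, 0.60, 1.37 and 1.63 FPKM in ST-HSC and 8.46, 1.71 and 4.09 in STHSC:MA9. CMP was listed at 0.01, 0, 0, 0 and 0 FPKM, and CMP:MA9 had 5.17, 2.80, 6.16 and 6.32. GMP had 1.46, 1.05, 0.79, 0.27 and 0.70 FPKM and GMP:MA9 ran from 0.850 to 13.7 with a median of 3.50, the only one of the 4 pairs that overlapped. MPP ran from 0 to 0.940 FPKM and MPP:MA9 from 2.29 to 8.84 (median 4.14). Ptges passed the filter on low values through the leukaemias alone (mean 5.02 FPKM, against 0.523 in the 4 normal groups), so its changes are given as a description with no p. They were 1.51 (SE 0.43) in STHSC:MA9, 2.01 (SE 0.34) in MPP:MA9, 2.56 (SE 0.39) in CMP:MA9 and 1.47 (SE 0.35) in GMP:MA9, and in STHSC:MA9 1.06 without STHSC:MA9 replicate 1 and 1.84 without stem cell replicates 4 and 5. These levels are close to the pseudocount of 1, so the log2(FPKM + 1) scale understates the ratios. Outside the 4 pairs, the LT-HSC samples had 0.39, 4.22, 12.0, 1.15 and 1.51 FPKM and Ptges was listed at 0 in all 4 MEP samples.

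Ptgs1, the constitutive cyclooxygenase, spread widely within each leukaemia group. It was 28.3, 81.4, 12.3, 4.17, 33.4 and 31.4 FPKM in the 6 MPP:MA9 leukaemias and 38.8, 29.8, 5.11, 19.7, 3.94 and 33.3 in the 6 GMP:MA9 leukaemias. It was 5.92, 10.2, 35.4 and 12.6 FPKM in CMP:MA9 and 28.0, 38.4 and 52.1 in STHSC:MA9. Each of these ranges overlapped that of the normal cell, which was 7.91–15.6 FPKM in MPP, 22.8–34.7 in GMP, 5.75–11.3 in CMP and 26.1–54.4 in ST-HSC. By limma the changes lay between −0.72 (SE 0.49, adjusted p = 0.21) in GMP:MA9 and 0.88 (SE 0.47, adjusted p = 0.098) in MPP:MA9, and the F test gave an adjusted p of 0.2. Leaving out MPP:MA9 replicate 4, the sample at 4.17 FPKM, brought a call in MPP:MA9 (1.32) and in the F test (adjusted p = 0.045). Ptgs2, the inducible cyclooxygenase, did not reach a mean of 1 FPKM and was not tested. It was listed at 0 in 9 of 19 leukaemias, where its highest value was 0.380 FPKM, and in 3 of 30 normal samples, where its highest was 6.54 in LT-HSC replicate 4.

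Tbxas1, thromboxane A synthase, was highest in stem cells and followed no single course in the leukaemias. ST-HSC had 58.6, 37.2, 30.5, 22.9 and 32.5 FPKM and STHSC:MA9 had 22.6, 13.3 and 9.29. MPP ran from 12.9 to 24.0 FPKM (median 19.2) and MPP:MA9 from 5.67 to 18 (median 7.81). The first pair did not overlap and the second did. By limma the change was −1.23 (SE 0.35, adjusted p = 0.0041) in STHSC:MA9, lost without STHSC:MA9 replicate 3 (−0.96) and kept without stem cell replicates 4 and 5 (−1.45), and −1.03 (SE 0.28, adjusted p = 0.0017) in MPP:MA9, so near the limit on size that median-ratio scaling (−0.95), a correction for GC content and length (−0.93) ended that call, as did leaving out MPP replicate 2 or 5 or MPP:MA9 replicate 1 or 4 (−0.93 to −0.99). It was −0.82 (SE 0.33, adjusted p = 0.03) in CMP:MA9 and 0.20 (SE 0.29, adjusted p = 0.59) in GMP:MA9. The F test (limma adjusted p = 0.031) was likewise lost under median-ratio scaling (0.055), the GC and length correction (0.11) and with no filter on low values (0.057), and without any of 5 single libraries (0.058 to 0.079), GMP replicates 2 and 5, STHSC:MA9 replicate 3 and GMP:MA9 replicates 1 and 2. A list of 8 megakaryocyte and platelet genes, among them Pf4, summed to 334–1352 FPKM in ST-HSC, 11.3–19 in STHSC:MA9, 25.2–42.0 in MPP and 10.8–23.9 in MPP:MA9, and its part in the fall of Tbxas1 was not tested. Hpgds, the haematopoietic prostaglandin D synthase, was untested for its low level, with 0.05 to 0.930 FPKM in the leukaemias and up to 5.51 in MPP and 4.20 in LT-HSC.

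**Figure D2:**
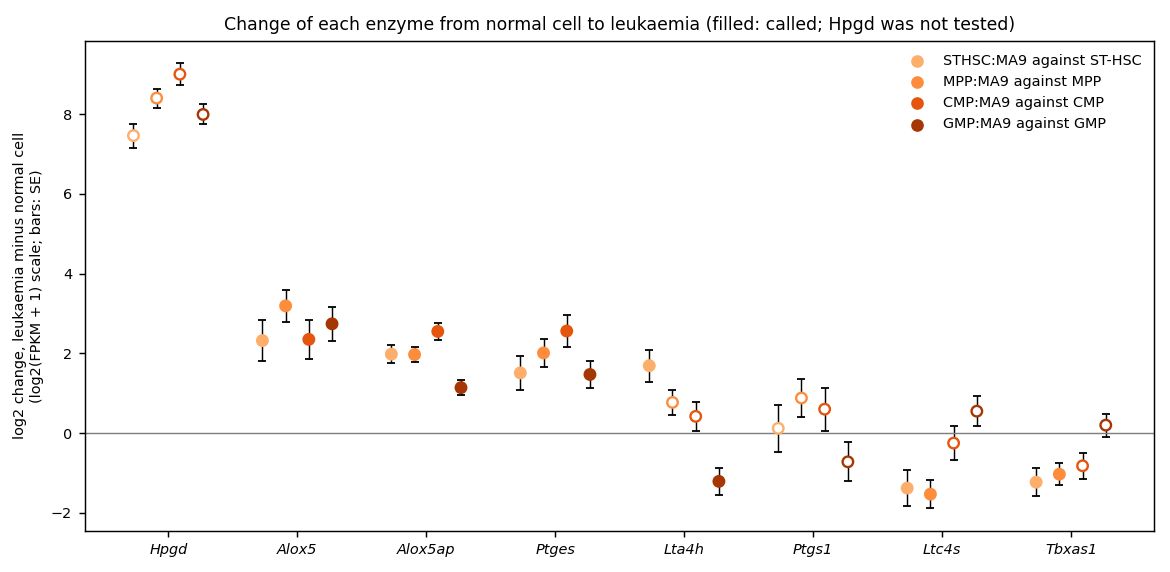
Change of 8 members from normal cell to leukaemia, as the difference in mean log2(FPKM + 1), for the 4 cells of origin. Bars are standard errors and filled points were called by limma (adjusted p below 0.05 and change above 1 in size). Hpgd, which was picked for this change, was not tested. Ptges passed the filter on low values through the leukaemias alone, so its filled points are a description. Hpgd lies between 7.46 and 9.0, Alox5 and Alox5ap between 1.14 and 3.19, and Lta4h falls on both sides of 0.

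Counted over the 7 tested members other than Hpgd, 4 were called higher and 2 lower in STHSC:MA9, 3 and 2 in MPP:MA9, 3 and none in CMP:MA9, and 3 and 1 in GMP:MA9. Ptges, which passed the filter through the leukaemias alone, is 1 of those higher in each. Over the other 6 the counts were 3 higher and 2 lower, 2 and 2, 2 and none, and 2 and 1. The percentages of all genes tested stand with the leukotriene genes above and include genes that passed the filter through 1 side alone. With so few genes these counts are descriptions. Alox5 and Alox5ap were called higher in all 4 leukaemias and no member was called lower in all 4. The share of all genes called in all 4 was not counted. Of the 6 tested members other than Hpgd and Ptges, limma called Alox5 (2.65, SE 0.23, adjusted p = 7.6e-13) and Alox5ap (1.91, SE 0.10, adjusted p = 1.1e-18) for the mean of the 4 changes. Of all genes tested, 12.1% were called higher and 11.3% lower there. The F test called 4 of the 7 (Alox5ap, Lta4h, Ltc4s and Tbxas1), beside 38% of all genes tested.

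Between leukaemias of different origin, limma called none of the 7 members in any of the 6 pairs (0 of 42 tests). At an unadjusted p below 0.05 there was 1, Tbxas1 in STHSC:MA9 minus CMP:MA9 (1.12, SE 0.44, limma adjusted p = 0.23). Few genes of any kind were called in these pairs. The percentages were 2.88% between STHSC:MA9 and MPP:MA9, 0.363% between STHSC:MA9 and CMP:MA9, 0.536% between STHSC:MA9 and GMP:MA9, 0.115% between MPP:MA9 and CMP:MA9, 2.23% between MPP:MA9 and GMP:MA9 and 0.206% between CMP:MA9 and GMP:MA9.

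Across the 19 leukaemias Ptgs1 and Lta4h rose and fell together, and both tracked the granulocyte genes. The correlations among leukaemias were chosen after values had been seen, so their permutation p-values are descriptions. The permutations also took no account of the groups of origin. Ptgs1 and Lta4h on log2(FPKM + 1) had Pearson's r = 0.92 and Spearman's rho = 0.94, with a permutation p of 1.0e-05 for each, the smallest that 100000 permutations can give (adjusted p = 1.2e-04 over 35 relations). Without the 2 leukaemias farthest from the median, r was 0.88, and it was 0.91 within the 6 MPP:MA9 and 0.98 within the 6 GMP:MA9 leukaemias. The log2 summed level of the 11 granulocyte genes, which are markers such as S100a8 and Ltf, had r = 0.91 and rho = 0.86 with Ptgs1 and r = 0.89 and rho = 0.88 with Lta4h (permutation adjusted p = 1.2e-04 in each case). Leaving out 2 leukaemias gave r = 0.88 for both, and within MPP:MA9 and GMP:MA9 the values were 0.94 and 0.92 for Ptgs1 and 0.99 and 0.98 for Lta4h. The leukaemia with the most Ptgs1, MPP:MA9 replicate 2, had a granulocyte sum of 52583 FPKM, and MPP:MA9 replicate 4, with 4.17 FPKM of Ptgs1, had 1104.

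Other members did not share this relation in every group. Alox5 had r = 0.59 and rho = 0.65 with the granulocyte list (permutation adjusted p = 0.027 and 0.014), but r was 0.46 without the 2 farthest leukaemias, 0.88 within MPP:MA9 and −0.54 within GMP:MA9. Against the monocyte and macrophage list Lta4h had r = −0.75 and rho = −0.69 (permutation adjusted p = 0.002 and 0.0091) and Ptgs1 r = −0.61 and rho = −0.69 (0.027 and 0.0097). Without the 2 farthest leukaemias these were −0.79 and −0.73, and within MPP:MA9 and GMP:MA9 they were −0.95 and −0.53 for Lta4h and −0.79 and −0.43 for Ptgs1. Alox5ap and Ltc4s had r = 0.62 and rho = 0.70 (permutation adjusted p = 0.027 and 0.0091), with 0.66 without 2 leukaemias, 0.55 within MPP:MA9 and 0.83 within GMP:MA9. Hpgd, which was not tested here, had r = −0.45 and rho = −0.48 with the granulocyte list and r = 0.30 and rho = 0.39 with the monocyte and macrophage list. Within groups the first was −0.85 in MPP:MA9 and 0.26 in GMP:MA9, and the second 0.95 and 0.08. Without the 2 farthest leukaemias they were −0.30 and 0.56.

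**Figure D3:**
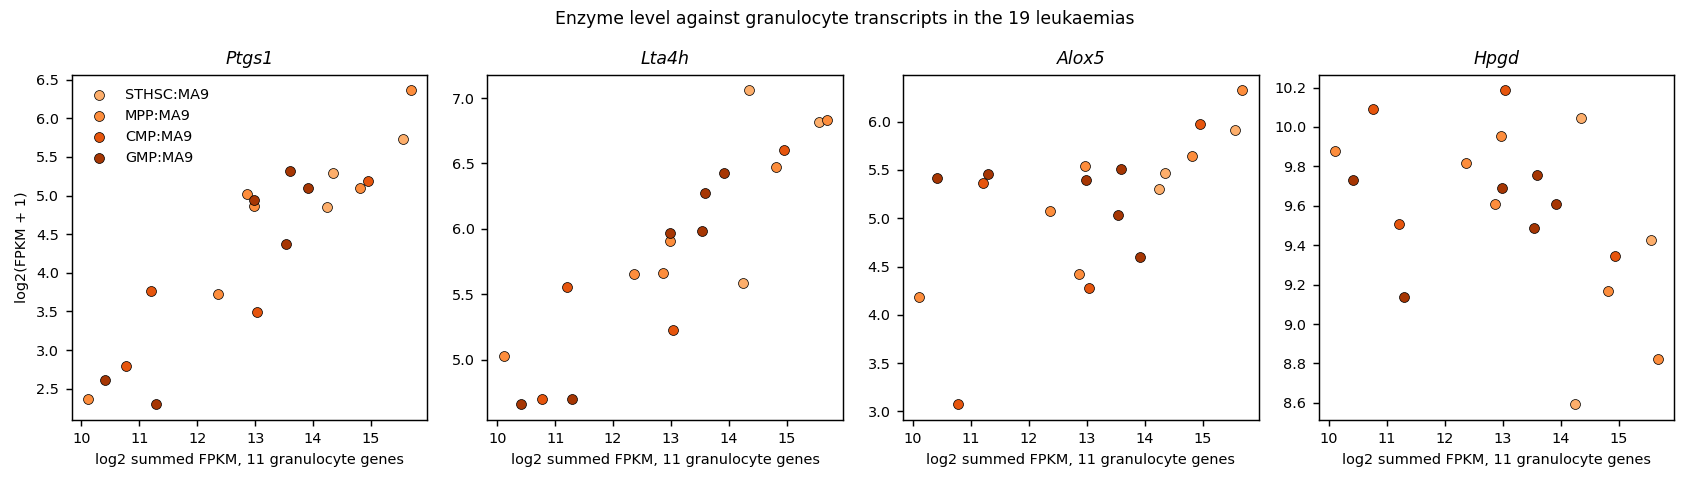
Levels of Ptgs1, Lta4h, Alox5 and Hpgd, as log2(FPKM + 1), against the log2 of the summed FPKM of 11 granulocyte genes in the 19 leukaemias, with points marked by cell of origin. Ptgs1 (r = 0.91) and Lta4h (r = 0.89) climb with the list, Alox5 does so less closely (r = 0.59), and Hpgd does not climb (r = −0.45).

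In the normal hierarchy 9 of the 10 members had their lowest group mean in MEP, and Ltc4s had its lowest in GMP. The share of all genes lowest in MEP was not counted, so this is a description. Some gaps were small, as for Alox5 (3.25 FPKM in MEP against 3.42 in MPP) and Ptges (0 against 0.00200 in CMP). Of 42 tests over 6 pairs of normal groups, limma (12367 genes) called 14, in 5 of the 7 members. The share of all genes called in at least 1 of these pairs was not counted. Alox5 and Ptges were called in none. Alox5ap was lowest in MEP, at 18.9, 17.9, 10.2 and 33.7 FPKM, and highest in GMP. CMP minus GMP was −1.11 (SE 0.42, limma adjusted p = 0.037), and Alox5ap was higher by 3.27 (SE 0.44, adjusted p = 1.5e-06) in CMP than in MEP and by 4.38 (SE 0.44, adjusted p = 2.9e-09) in GMP than in MEP. The call of CMP against GMP was lost with no filter on low values (−1.11) and in 7 single leave-outs (−1.0 to −1.12), CMP replicates 3, 4 and 5 and GMP replicates 1, 2, 3 and 5. The stem cells held up to 766 FPKM of Alox5ap and 52.2 of Alox5, both in LT-HSC replicate 4, 1 of the 4 libraries with high granulocyte genes.

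Ptgs1 was 0.91, 0.46, 1.64 and 2.04 FPKM in MEP, 5.75 to 11.3 in CMP and 22.8 to 34.7 in GMP, and these groups did not overlap. By limma it was higher in GMP than in MEP by 3.71 (SE 0.26, adjusted p = 3.3e-12), in CMP than in MEP by 2.08 (SE 0.26, adjusted p = 4.0e-07), in GMP than in CMP (CMP minus GMP −1.62, SE 0.24, adjusted p = 6.0e-06) and in ST-HSC than in MPP by 1.48 (SE 0.23, adjusted p = 5.8e-05). Lta4h set GMP apart, with a difference of −1.77 (SE 0.27, limma adjusted p = 9.5e-06) for CMP minus GMP and 2.51 (SE 0.29, adjusted p = 3.7e-08) for GMP minus MEP. Tbxas1 was higher in CMP (1.87, SE 0.31, limma adjusted p = 2.7e-05) and in GMP (1.33, SE 0.31, adjusted p = 6.7e-04) than in MEP, where it was 1.82 to 3.31 FPKM.

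Ltc4s was higher in MPP than in CMP by 1.32 (SE 0.30, limma adjusted p = 0.0031), which a pseudocount of 0.1 ended (1.75). It was higher in CMP than in GMP by 1.16 (SE 0.32, adjusted p = 0.0046), which the GC and length correction ended (0.71). LT-HSC minus ST-HSC was −1.18 (SE 0.32, limma adjusted p = 0.017), a call lost without LT-HSC replicates 4 and 5, listed at 0, and ST-HSC replicates 4 and 5 (−0.83), without either of those LT-HSC libraries alone (−0.98 in each case) and in a fit of these groups only (−1.18). Members called numbered 1 in LT-HSC against ST-HSC (2.26% of all genes tested were called), 1 in ST-HSC against MPP (3.44%), 1 in MPP against CMP (4.32%), 4 in CMP against GMP (11.2%), 3 in CMP against MEP (11.8%) and 4 in GMP against MEP (20.5%). Without stem cell replicates 4 and 5, Tbxas1 also passed in ST-HSC against MPP (1.09), as it did without ST-HSC replicate 4 alone (1.01). Without LT-HSC replicate 1, Ptges passed in LT-HSC against ST-HSC (1.3).

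Over the 49 samples, as a description without a test, each member had its own nearest genes. Alox5 was most like Adam8 (r = 0.945), the leukocyte integrin chain Itgb2 (0.939) and Pilra (0.929), and Alox5ap most like the leukocyte actin-bundling gene Lcp1 (0.972), Hcst (0.965) and Ebi3 (0.964). Lta4h was most like Alas1 (0.912), Gpi1 (0.904) and the granulocyte transcription factor Gfi1 (0.895), and Ptgs1 most like Irak3 (0.879), Mctp1 (0.865) and Tlr4 (0.823). Ltc4s had the lowest values of the 7. Tbxas1 was closest to Nfat5 (0.87), Scarf1 (0.845) and Smarca2 (0.843), Ptges to C1rl (0.832), Clock (0.831) and Plekhg1 (0.83), and Ltc4s to Tcf7l2 (0.754), Elk4 (0.697) and Jak3 (0.694).

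Of the 60 other pathway genes, 33 passed the filter. In STHSC:MA9 10 were called higher and 8 lower, in MPP:MA9 10 and 10, in CMP:MA9 9 and 8, and in GMP:MA9 5 and 4. Of all genes tested, between 12.3% and 13.5% were called higher and between 8.87% and 14.8% lower in these comparisons. For the mean of the 4 changes 8 were higher and 7 lower (12.1% and 11.3% of all genes), and the F test called 18 of the 33 (38% of all genes). A mean of 1 FPKM was reached on 1 side alone by 10 of the 33, Cysltr1, Ptgir, Dpep3, Dpep2 and Pla2g7 in the leukaemias and Ptger3, Ggt5, Tbxa2r, Cysltr2 and Alox15 in the normal cells. Their changes from normal cell to leukaemia are given as values with no p. Over the other 23 genes the counts were 7 higher and 4 lower in STHSC:MA9, 5 and 6 in MPP:MA9, 4 and 5 in CMP:MA9, 1 and 4 in GMP:MA9 and 3 and 3 on the mean change, and the F test called 12. The shares of all genes still include genes that reached 1 FPKM on 1 side alone, so they do not match these counts. Of these 23, Cyp4f18 was called higher and Pla2g12a lower in all 4 leukaemias, and the share of all genes so called was not counted. Without stem cell replicates 4 and 5, 20 pathway genes in place of 18 were called in STHSC:MA9, with Pla2g15 (1.21) and Ptgds (−1.60) added.

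Of the genes listed as phospholipases, the platelet-activating factor hydrolase Pla2g7 was higher by 3.12 on the mean of the 4 log2 changes (SE 0.29), with 0.770–47.2 FPKM in the leukaemias and 0–17.1 in normal cells. The secreted phospholipase Pla2g12a was lower (−2.10, SE 0.15, limma adjusted p = 7.1e-15), with 0.110–3.16 FPKM against 4.53–57.8 and no overlap. Pla2g4a, the cytosolic phospholipase that supplies arachidonic acid for eicosanoids, was lower as well (−1.13, SE 0.12, limma adjusted p = 3.2e-10), with 4.24–26.0 FPKM against 10.3–60.8. Both of these fell while Alox5 and Alox5ap rose. Pla2g4a fell by less than the limit on size in GMP:MA9 (−0.85, SE 0.23, limma adjusted p = 0.002).

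Among genes that process leukotrienes, Dpep2, a dipeptidase that converts leukotriene D4 to E4, had 9.59–202 FPKM in the leukaemias and 0–1.59 in normal cells (mean change 5.44, SE 0.24). Cyp4f18, which inactivates leukotriene B4, had 12.0–98.3 FPKM against 0–19.8 (4.18, SE 0.19, limma adjusted p = 8.6e-21). Dpep3, related to Dpep2, had 0–11 FPKM against 0–0.0800 (1.57, SE 0.21). The first of these did not overlap between leukaemias and normal cells. The glutathione transferase Mgst2 was higher in STHSC:MA9 (1.27, SE 0.52, limma adjusted p = 0.042, and 1.83 without stem cell replicates 4 and 5) and CMP:MA9 (1.29, SE 0.48, adjusted p = 0.019) and lower in GMP:MA9 (−2.11, SE 0.43, adjusted p = 8.2e-05), where its mean was 11.6 FPKM against 47.5 in GMP. Ptgr1, a reductase that acts after Hpgd on prostaglandins and also on leukotriene B4, followed a like course, higher in STHSC:MA9 (1.5, SE 0.33, limma adjusted p = 2.2e-04, and 1.77 without those replicates) and MPP:MA9 (1.58, SE 0.26, adjusted p = 1.9e-06) and lower in GMP:MA9 (−1.62, SE 0.27, adjusted p = 4.5e-06). Mgst3, with at most 34.4 FPKM in a normal sample and 6.59 in a leukaemia, was called in no leukaemia.

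**Figure D4:**
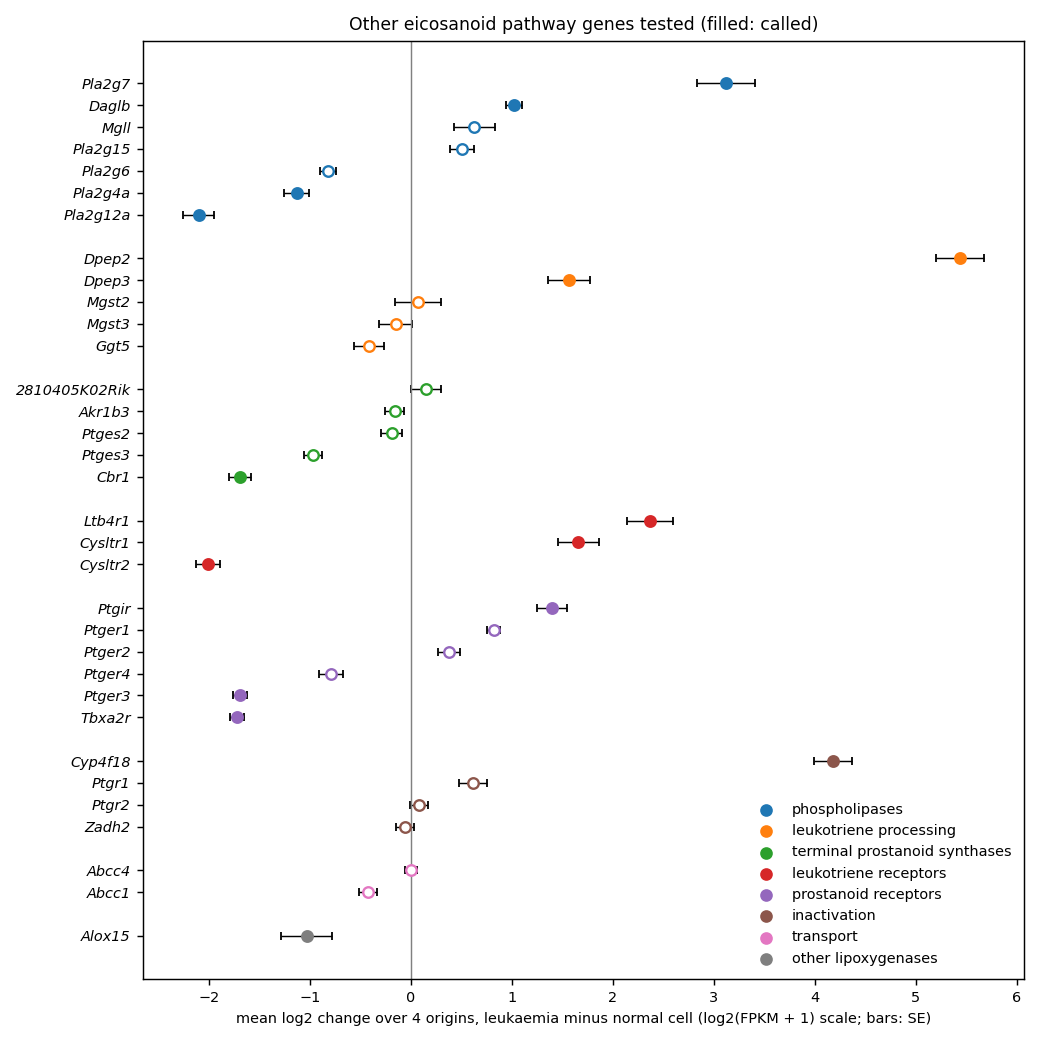
Mean of the 4 changes from normal cell to leukaemia, in log2(FPKM + 1), for the 33 pathway genes tested, ordered by role. Bars are standard errors and filled points were called by limma. The values of Dpep2 (5.44) and Cyp4f18 (4.18) are the highest and that of Pla2g12a (−2.10) is the lowest. Of the 33 genes, 10 reached 1 FPKM in leukaemias alone or normal cells alone, and a filled point of these is a description.

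Among the other synthases Cbr1, a carbonyl reductase that acts on prostaglandin E2, was lower (−1.69, SE 0.11, limma adjusted p = 9.7e-16), with 1.25–6.55 FPKM in the leukaemias and 5.47–30.3 in normal cells. The cytosolic prostaglandin E synthase Ptges3 was abundant and lower in 3 of the 4 leukaemias, most in GMP:MA9 (−1.31, SE 0.17, limma adjusted p = 7.5e-08), while Ptges had higher means. Akr1b3 was abundant in leukaemias (56.2–143 FPKM) and normal cells (66.2–157) alike and was called in none. Alox15, the 12/15-lipoxygenase, had its lowest change in STHSC:MA9 (−2.88, SE 0.55), which was −1.95 without stem cell replicates 4 and 5. Alox15 passed the filter on low values through the normal cells alone, so no p is given. Its mean change was −1.03, and −0.80 without those libraries. A list of 5 eosinophil genes, a cell type known for Alox15, summed to 153–849 FPKM in ST-HSC and 13.2–76.7 in STHSC:MA9, and its part was not tested. The transporters Abcc1 and Abcc4 were called in no leukaemia.

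The receptors moved in both directions. The leukotriene B4 receptor Ltb4r1 was higher in STHSC:MA9 (2.81, SE 0.51, limma adjusted p = 2.2e-05, and 3.81 without stem cell replicates 4 and 5), MPP:MA9 (3.30, SE 0.41, adjusted p = 8.8e-09) and CMP:MA9 (3.17, SE 0.47, adjusted p = 5.3e-07) but not in GMP:MA9 (0.21, SE 0.43, adjusted p = 0.71), and this difference passed the F test (limma adjusted p = 2.1e-04). Of the cysteinyl leukotriene receptors, Cysltr1 had a mean change of 1.66 (SE 0.20), from 0.43 (SE 0.45) in STHSC:MA9 to 2.62 (SE 0.41) in CMP:MA9. Cysltr2 had a mean change of −2.01 (SE 0.12), from −2.90 (SE 0.21) in MPP:MA9 to −0.34 (SE 0.22) in GMP:MA9. Cysltr1 passed the filter on low values through the leukaemias alone and Cysltr2 through the normal cells alone, so no p is given for either. Among prostanoid receptors, the mean change was 1.40 (SE 0.15) for the prostacyclin receptor Ptgir, −1.72 (SE 0.07) for the thromboxane receptor Tbxa2r and −1.69 (SE 0.07) for the prostaglandin E2 receptor Ptger3. Tbxa2r was listed at 0 in every MPP:MA9 and CMP:MA9 leukaemia. Ptger1, the most abundant prostanoid receptor on the list, passed in MPP:MA9 alone (1.05, SE 0.11, limma adjusted p = 6.4e-10), just over the limit on size. Its change was 0.74 in STHSC:MA9 and 0.82 on the mean of the 4 changes, both under that limit. A difference among origins was not called for Ptger1 (F test, limma adjusted p = 0.16). None of the 6 tested prostanoid receptors was called in GMP:MA9 against GMP, where 13.5% of all genes were called higher and 8.87% lower. With 6 genes this is a description.

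Between leukaemias, 4 of 28 tested pathway genes were called in a pair, where 2.88% of all genes were called between STHSC:MA9 and MPP:MA9 and 2.23% between MPP:MA9 and GMP:MA9. Pla2g4a (1.13) was higher and Cyp4f18 (−1.75) lower in STHSC:MA9 than in MPP:MA9, and Cysltr1 (−1.35) was lower and Ptger1 (1.31) higher in MPP:MA9 than in GMP:MA9. With the replicate number as a block, 2 of the 28 were called. Between normal groups, 20 of 32 were called in at least 1 pair, from none in LT-HSC against ST-HSC (2.26% of all genes) to 14 in GMP against MEP (20.5%). The share of all genes called in at least 1 pair was not counted for leukaemias or normal groups, so both of these counts are descriptions.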

How the data were processed

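The authors deposited 1 table of FPKM values, estimated with RSEM on mm9 from amplified (NuGEN Ovation V2), unstranded Illumina libraries. The study tested read counts, which were not analysed here, so limma replaced a count test. Groups and replicate numbers came from sample titles. A further 19 columns without a sample label were not used.

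From these values, limma 3.58.1 (R 4.3.3, trended variance, two-sided) was fitted to log2(FPKM + 1) on genes that averaged 1 FPKM or more in the fit, for the 8 paired groups (12600 genes), the 19 leukaemias (12128) and the 30 normal samples (12367), with Benjamini-Hochberg adjustment over all genes tested. Calls needed adjusted p below 0.05 and a log2 change above 1 in size. The F test used adjusted p alone. The members and lists were chosen with earlier results of these data known. Named were every member, the pathway genes with the 3 largest called rises and falls in a comparison or a mean above 20 FPKM in a group, and the 3 genes most like each member. Dpep3 and Ptgir were added, and the correlations among leukaemias chosen, after values had been seen. The correlations used 100000 permutations (scipy 1.17.1). Fits were tested on simulated data.

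Whether replicate numbers pair samples was checked by correlating deviations from group means. Only in LT-HSC against ST-HSC did every same-numbered pair exceed 0.1 (5 pairs, mean r 0.288, 0.142–0.683), a pairing taken from the data, since the labels name no shared batch. Alternatives were a pseudocount of 0.1, no filter, median-ratio scaling, a GC and length correction (86.4% of genes had values), a replicate block, fits of only the groups compared, no fold threshold and leaving out each of 49 libraries. Scaling moved the median change of all genes by over 0.1 in 4 comparisons (CMP:MA9 against CMP from −0.16 to −0.01, CMP against GMP from 0.2 to 0.01, CMP against MEP from 0.14 to 0, LT-HSC against ST-HSC from −0.12 to 0). No called change of a member reversed direction. Changes that were called in neither fit were not checked for direction.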

Additional observations from a re-analysis of the deposited data

Results flagged for a closer look

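In 89 groups of 4 to 10 values of the members, 6 single samples stood apart by Dixon's test at its 95% limit, which chance alone flags in about 1 in 20 groups. Ptgs2 was at 6.54 FPKM in LT-HSC replicate 4, 1 of the libraries with high granulocyte genes, at 2.12 in CMP replicate 2, at 0.420 in GMP replicate 2 and at 0.120 in GMP:MA9 replicate 2. Ltc4s was at 1.33 FPKM in GMP replicate 4, the other GMP samples being listed at 0. Ptges was at 0.01 FPKM in CMP replicate 1 and listed at 0 in the other CMP samples. All of these are low values.

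By the limma F test the 4 origins differed in how far leukaemia departed from normal cell for Lta4h (adjusted p = 1.9e-04), Alox5ap (adjusted p = 0.0015), Ltc4s (adjusted p = 0.0059) and Tbxas1 (adjusted p = 0.031), and for 18 of the 33 other pathway genes tested, beside 38% of all genes. In the first 2 of these the normal cells differed by lineage, GMP having the highest mean of the 4 normal cells, and the leukaemias overlapped one another.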

How the results depend on the processing

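No called result for a member reversed under any alternative. Of the alternative values for single members, 3573 kept their status, called or not called, 34 lost a call and 18 gained one. Of the 3573, 2878 came from leaving out 1 library, in part from a group outside the comparison. With the replicate number as a block, all 84 results for single members kept their status, called or not called. Pathway genes called in a pair of leukaemias went from 4 to 2. That count was 2 with no filter on low values, 1 with the GC and length correction and 0 with the block and that correction together. Outside LT-HSC against ST-HSC the numbers did not pair the samples (mean r −0.21 to 0.157). Without the fold threshold, members called on the mean of the 4 changes (Ptges among them) went from 3 to 6, and in ST-HSC against MPP from 1 to 2. Pathway genes then went from 9 to 18 in GMP:MA9 and from 15 to 25 on the mean change. A pseudocount of 0.1 raised pathway genes in GMP:MA9 to 14 and left 0 members in MPP against CMP. In LT-HSC against ST-HSC, 0 members were called from these groups alone or without replicates 4 and 5, and without the latter 2 were called in ST-HSC against MPP.

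Leaving out 1 library at a time gave 4–6 members called in STHSC:MA9, 4–5 in MPP:MA9, 3–3 in CMP:MA9, 4–4 in GMP:MA9, 3–3 on the mean change, 3–5 in the F test, 0–0 between leukaemias, 0–2 in LT-HSC against ST-HSC, 1–2 in ST-HSC against MPP, 3–4 in CMP against GMP, and 2–5 pathway genes between leukaemias. The member counts for leukaemia against normal include Ptges, which passed the filter through the leukaemias alone. Ptges, Ltc4s, Ptgs2 and Hpgds are near the detection limit of these FPKM values, for which no read counts were used, so that small changes in them were not detectable. Only 3 leukaemias of STHSC:MA9 were sequenced, and its calls for Ltc4s and Tbxas1 were each lost on leaving out 1 library. The Ptges change there, given as a description, also moved on leaving out 1 library.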
